A study of Mus musculus and Rattus norvegicus with 26 samples.

Results

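Sarcomere genes of the heart, 10 in number, were followed in lists of intronic sequence from dendrites, neuronal somas, brown adipose cells and cardiomyocytes. The genes were Ttn, Nebl, Nexn, Myom1, Actn2, Ldb3, Mybpc3, Myh6, Myh7 and Tnnt2, and their contigs were found by gene symbol. All 10 of 10 were listed in cardiomyocytes, out of 13695 gene symbols in any of the 6 lists. A contig is the span of uniquely mapped intronic reads that lie no more than 500 bp apart, so some of its bases may have no read. Each list gives 1 raw read count per transcript and intron. The count was repeated on every contig of an intron and was taken once.

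The mouse lists came from C57BL/6 hippocampal neurons of embryonic day 18 that were grown in primary culture, as dissected dendrites (3 libraries) and as single somas (3 libraries), from single cells of CD-1 interscapular brown adipose tissue (BAT) of embryonic day 17.5 (6 libraries) and from single cardiomyocytes of embryonic day 14.5 (9 libraries). The cardiomyocytes came from flow-sorted ventricular cells of transgenic C57BL/6 mice, hemizygous for the Fucci cell cycle probe mAG-hGem (1/110) under the CMV promoter. The rat lists came from Sprague-Dawley hippocampal neurons of embryonic day 18, as dendrites (2 libraries) and somas (3 libraries). The labels name no treatment, and RNA of every group went through 3 rounds of aRNA amplification, which starts from a poly(T) primer. The authors pooled libraries of a condition before the lists were written, and the lists do not name the libraries used, so every value below is 1 value per condition, with no spread between cells and no test between conditions. A pooled value also cannot tell fewer cells with reads of a gene from fewer reads per cell. Somas, BAT cells and cardiomyocytes were whole cells, in which RNA waiting to be spliced in the nucleus and intron sequence retained in the cytoplasm cannot be told apart.

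The lists summed to between 1007530 reads in rat dendrites and 17858440 in BAT cells, with 12201042 in cardiomyocytes, 1855447 in mouse somas, 3086576 in mouse dendrites and 2094541 in rat somas. Levels are therefore given as reads per 1000000 listed intronic reads (RPM), with 95% Wilson intervals where printed, which cover counting error only because amplified reads are not independent molecules. Markers set the labels in context. Of the 12467 genes in any mouse list, 49.8% were listed in cardiomyocytes, 82.0% in BAT cells, 69.0% in dendrites and 47.3% in somas. Of 16 cardiomyocyte markers, 7 were in no mouse list. Listed markers numbered 8 in cardiomyocytes, 8 in BAT cells, 7 in dendrites and 6 in somas. Their number thus did not separate cardiomyocytes from BAT cells. Their summed level was 46414 RPM in cardiomyocytes, 4710 in BAT cells, 4883 in somas and 3829 in dendrites, led in cardiomyocytes by the dystrophin gene Dmd (22010 RPM) and the calcium release channel gene Ryr2 (11985), and in somas by Erbb4 (3097) and Dmd (1579), while Pln, Nppa, Gata4 and Hand2 had no contig in any mouse list. A gene with no listed intron may still be expressed, since exons are not in these files. The gene of the heart factor Nkx2-5 had 26804 reads in BAT cells and none in cardiomyocytes. Brown adipocyte markers summed to 9185 RPM in BAT cells and 328 in cardiomyocytes, neuron markers to 8420 RPM in somas, 3996 in BAT cells, 2235 in dendrites and 374 in cardiomyocytes. Cadm2 alone gave 2664 RPM of the sum in BAT cells, and without it BAT cells were at 1332 and dendrites at 2018. Endothelial or fibroblast markers summed to 288 RPM in cardiomyocytes, 702 in BAT cells, 883 in somas and 1224 in dendrites. Of the 288 RPM in cardiomyocytes, Tek alone gave 287. Blood markers summed to 0.328, 160, 168 and 339 RPM in the same order.

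The sarcomere is the contractile unit of striated muscle. Thick filaments of myosin, with heavy chains such as those of Myh6 and Myh7 and the binding protein of Mybpc3, slide past thin actin filaments that carry the troponin complex, to which Tnnt2 belongs. Titin (Ttn) spans from the Z-disc to the M-band, where myomesin (Myom1) links thick filaments, while alpha-actinin (Actn2), nebulette (Nebl), nexilin (Nexn) and cypher (Ldb3) are proteins of the Z-disc or its surroundings. Neurons and brown fat cells build no sarcomeres, although brown adipocytes arise from precursors close to those of skeletal muscle.

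On mm9 the annotated transcripts that fitted most contigs placed Ttn (NM_011652, NM_028004) at chr2:76542041-76820604, Nebl (NM_028757) at chr2:17265536-17652670, Mybpc3 (NM_008653) at chr2:90958301-90976673 and Nexn (NM_199465) at chr3:151899950-151929284. They placed Myom1 (NM_010867) at chr17:71368908-71476196, Actn2 (NM_033268) at chr13:12361693-12433027 and Tnnt2 (NM_001136083, NM_011619) at chr1:137737452-137748837. Chromosome 14 holds Ldb3 (NM_001039075, NM_001039076, NM_011918) at chr14:35339885-35401867, Myh6 (NM_010856) at chr14:55560758-55585444 and Myh7 (NM_080728) at chr14:55589604-55613463. They have from 6 introns (Nebl) to 191 (Ttn, NM_028004). 

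In several member introns a contig ran from the first to the last base in cardiomyocytes, and some of them are short enough to be read whole. They are shown because such a contig includes both splice sites, whose 2 bases at each end are in capitals. Positions are on the mouse build mm9 and sequences are written on the gene's strand. Nexn intron 6 (chr3:151911068-151911143) carried 411 reads, Nexn intron 12 (chr3:151900544-151900628) carried 10003 and Mybpc3 intron 31 in the numbering of the list (chr2:90976299-90976399) carried 202.
Nexn intron 6: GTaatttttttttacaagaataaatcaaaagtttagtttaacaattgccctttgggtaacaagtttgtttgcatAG
Nexn intron 12: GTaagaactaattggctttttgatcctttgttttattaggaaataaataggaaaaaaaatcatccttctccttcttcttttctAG
Mybpc3 intron 31: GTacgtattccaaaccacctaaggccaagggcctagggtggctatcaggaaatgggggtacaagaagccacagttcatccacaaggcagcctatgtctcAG

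Other contigs stopped at a run of A in the genome. The last 50 bases of 6 such contigs are shown, with runs of at least 10 A in capitals, since the poly(T) primer of the amplification pairs with A. The Ttn contigs lie in intron 126 (chr2:76692009-76692058), intron 46 (chr2:76743570-76743619) and intron 108 (chr2:76703895-76703944), the Actn2 contig in intron 12 (chr13:12375150-12375199) and the Myh7 contig in intron 16 (chr14:55606537-55606586), all from cardiomyocytes, and the Myom1 contig in intron 18 (chr17:71433033-71433082) from BAT cells.
Ttn intron 126: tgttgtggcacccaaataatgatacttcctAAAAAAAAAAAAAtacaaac
Ttn intron 46: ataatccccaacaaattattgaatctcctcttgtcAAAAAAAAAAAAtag
Ttn intron 108: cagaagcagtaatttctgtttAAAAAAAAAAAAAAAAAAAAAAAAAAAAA
Actn2 intron 12: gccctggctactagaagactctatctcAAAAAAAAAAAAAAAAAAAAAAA
Myh7 intron 16: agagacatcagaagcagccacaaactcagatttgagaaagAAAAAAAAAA
Myom1 intron 18: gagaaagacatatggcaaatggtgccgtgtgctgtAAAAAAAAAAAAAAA

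The 10 genes together held 3.85% of the listed intronic reads of cardiomyocytes (469862 of 12201042, interval 3.84 to 3.86), in 121 introns and 162 contigs. The share was 0.21% in BAT cells (37461 reads), 0.113% in mouse somas (2089 reads) and 0.0882% in mouse dendrites (2722 reads). The cardiomyocyte share was thus 18.4 times that of BAT cells, 34.2 times that of somas and 43.7 times that of dendrites. These ratios moved with the choice of introns. In the same order, with contigs of 400 nt or less they were 13.3, 17.3 and 33.5, without the 10 introns of most reads in each list 11.3, 20.1 and 26.9, without introns that touch an annotated exon 14.7, 98.0 and 53.2, and without Nebl, a choice made after seeing the data, 22.8, 226 and 79.0. The limit of 400 nt, which the paper applied to whole cells, chose introns by their contigs and kept the whole read count of each. Nebl intron 4, for instance, kept its 80964 reads although its longest contig had 3085 nt. Somas were above dendrites in member share in the full lists and below them without Nebl or without introns on exons. In the rat the genes held 330 reads in somas and 8 in dendrites.

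All 10 members were listed in cardiomyocytes, where 49.8% of the 12467 genes of any mouse list were listed. Dendrites listed 8 members (69.0% of all genes), BAT cells 7 (82.0%) and somas 6 (47.3%). Ttn, Nebl, Nexn, Myom1 and Ldb3 were in all 4 mouse lists, as were 3072 genes in all. Among rat lists, somas held Nexn and Myom1 (59.4% of the 5712 rat genes were listed) and dendrites held Nexn alone (78.5%). The 8 and 12 rat Nexn reads both lay in intron 7, and the 318 Myom1 reads of rat somas were split over introns 4 and 9.

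Every member was at least 4-fold higher in cardiomyocytes than in each other mouse list, a size reached by 7.17% of all genes (894 of 12467), or 14.4% of the 6205 genes of the cardiomyocyte list. With contigs of 400 nt or less 8 of the 10 reached it, and 13.7% of the genes then listed in cardiomyocytes, since Actn2 was then lower in cardiomyocytes than in the highest other list (0.138-fold) and Myh6 was not listed. When levels were scaled by the median reads per listed gene, Actn2 fell short at 3.15-fold and 16.7% of genes reached it. Without introns that touch an annotated exon, an alternative chosen after seeing the data, Nebl fell short at 2.34-fold and 15.2% of genes reached it. When listed introns were counted in place of reads, Ttn and Myh7 alone of the members reached it. So did 0.0483% of the genes of the cardiomyocyte list. Each other list was then set to at least 3 introns per gene, so genes with few listed introns could not reach 4-fold. Tnnt2, with 4 listed introns in cardiomyocytes and in no other list, came to 1.08-fold. The intron count therefore cannot decide for such genes. Nexn had the most reads, 131492 or 10777 RPM in cardiomyocytes (interval 10719 to 10835), against 95.6 RPM in BAT cells, 52.8 in somas and 13.0 in dendrites. Only 3 genes of the cardiomyocyte list had more reads than Nexn. Nebl followed with 8215 RPM in cardiomyocytes, 760 in BAT cells, 991 in somas and 495 in dendrites. Ttn had 7914 RPM in cardiomyocytes, 235 in BAT cells, 5.93 in somas and 77.4 in dendrites. These 3 genes supplied 69.9% of the members' reads in cardiomyocytes.

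Myom1, of the M-band, had 4002 RPM in cardiomyocytes, 224 in BAT cells, 56.1 in somas and 83.9 in dendrites. Actn2 had 3012 RPM in cardiomyocytes, 699 in BAT cells and 139 in dendrites, and was not listed in somas. Its 4.31-fold excess over BAT cells was the smallest of the 10. Ldb3 had 1065 RPM in cardiomyocytes, 83.8 in BAT cells, 14.6 in somas and 50.5 in dendrites.

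Myh7, the slow myosin heavy chain that dominates the ventricle before birth, had 2016 RPM in cardiomyocytes and 5.18 in dendrites (16 reads, interval 3.19 to 8.42), and no contig in BAT cells or somas. The dendrite contig shared 93 bases with an exon of Gm17428 on the other strand, and since the libraries keep no strand, reads of both genes cannot be told apart there. Without introns on exons dendrites listed 7 members, not 8. Myh6, the alpha heavy chain that is abundant in the atria and the adult mouse ventricle, had 528 RPM in cardiomyocytes, 0.448 in BAT cells (8 reads, interval 0.227 to 0.884) and 17.5 in dendrites (54 reads). Tnnt2, cardiac troponin T, had 868 RPM in cardiomyocytes and was in no other list, which puts it at least 537-fold higher when 3 reads are taken as the limit of each list. That bound was 34.7-fold with contigs of 400 nt or less, 29.9-fold without introns that touch an annotated exon and 21.1-fold without its top intron. Mybpc3 was the lowest member, at 113 RPM in cardiomyocytes and 5.39 in somas (10 reads, interval 2.93 to 9.92). The myosin genes lie next to each other on chromosome 14, and 20 of their 22 listed introns were in no other mouse list than that of cardiomyocytes, against 65 of 119 for all members and 27.0% of all introns of the list.

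**Figure D1:**
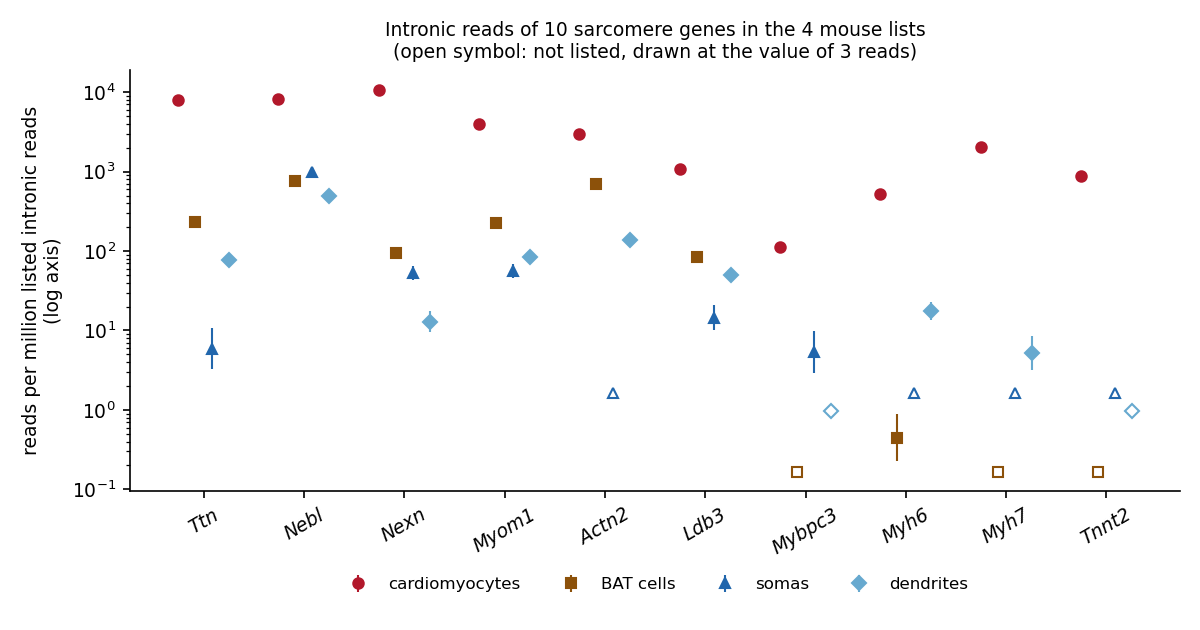
RPM of each gene (x axis) in the 4 mouse lists on a log axis, with 95% Wilson intervals as bars and open symbols at the value of 3 reads for a gene that was not listed. The cardiomyocyte value is the highest for all 10 genes, with Actn2 in BAT cells and Nebl in somas the closest to it.

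Levels of different genes can be compared only per length of intron. Per kb of annotated intron, cardiomyocytes held 403 RPM of Nexn, 114 of Myh7, 84.3 of Tnnt2, 44.1 of Actn2, 40.2 of Ttn, 39.4 of Myom1, 28.4 of Myh6, 21.5 of Nebl, 18.7 of Ldb3 and 7.94 of Mybpc3. For Ttn the introns of NM_028004 were used, and those of NM_011652 gave 44.7. Nexn therefore led in reads and in density, while Nebl fell from the second place to the eighth over introns that sum to 381 kb. In BAT cells the density was highest for Actn2 (10.2 RPM per kb) and in somas for Nebl (2.60), with Actn2 (2.03) leading in dendrites.

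A single intron held over 50% of the reads in 7 of the 10 members, a lower share than in the list as a whole, where it did in 95.3% of genes, and in 76.9% of the genes with at least 4 listed introns (6 of the 9 such members). In cardiomyocytes, intron 10 held 94.8% of the Tnnt2 reads, intron 26 held 94.3% of those of Myh7, intron 4 held 82.3% of those of Nexn and intron 4 held 80.8% of those of Nebl. Ttn was the most even, with 20.6% in its top intron, number 85. Of the 10 top introns, 7 had a run of at least 10 A inside a contig, against 22.1% of the top introns of all genes of the list. Such runs were more frequent in long contigs. Where the longest contig of the top intron reached 1000 nt, a run was present in 6 of 7 members and in 53.7% of all genes (378 of 704).

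Nexn had contigs in 10 of its 12 introns, introns 3 to 12, and in 9 of these a single contig ran from the first to the last base. Together the contigs spanned 44.7% of its intron bases. Intron 4 (3106 nt, chr3:151912666-151915771) had 108275 reads, intron 12 had 10003, intron 8 (3062 nt) had 7159, and intron 11 (224 nt) had 43, so contigs of full length occurred over a wide range of read counts. The remaining intron, number 10 (4226 nt), had 2498 reads in 3 contigs that spanned 57.6% of it. Introns 1 and 2 were not listed.

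Contigs of the full length of the intron were common in short introns and rare in long ones. Since a contig may bridge up to 500 bp between reads, an end-to-end contig in a short intron can rest on few reads. In cardiomyocytes a contig ran from end to end, within 5 bases, in 73.4% of all listed introns of up to 250 nt, in 43.9% of those up to 1000 nt and in 16.5% of those up to 4000 nt. Of the members' introns, 14 of 20, 19 of 56 and 24 of 103 were spanned in these classes, or 70%, 33.9% and 23.3%. Of 6195 listed introns of 3000 nt or more, 4 were spanned from end to end, and Nexn introns 4 and 8 were 2 of them, beside intron 8 of the triadin gene Trdn (144061 reads) and intron 3 of Cox6c (2603 reads). In BAT cells Nexn introns 3 and 7 were spanned as well, by 9 and 22 reads.

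**Figure D2:**
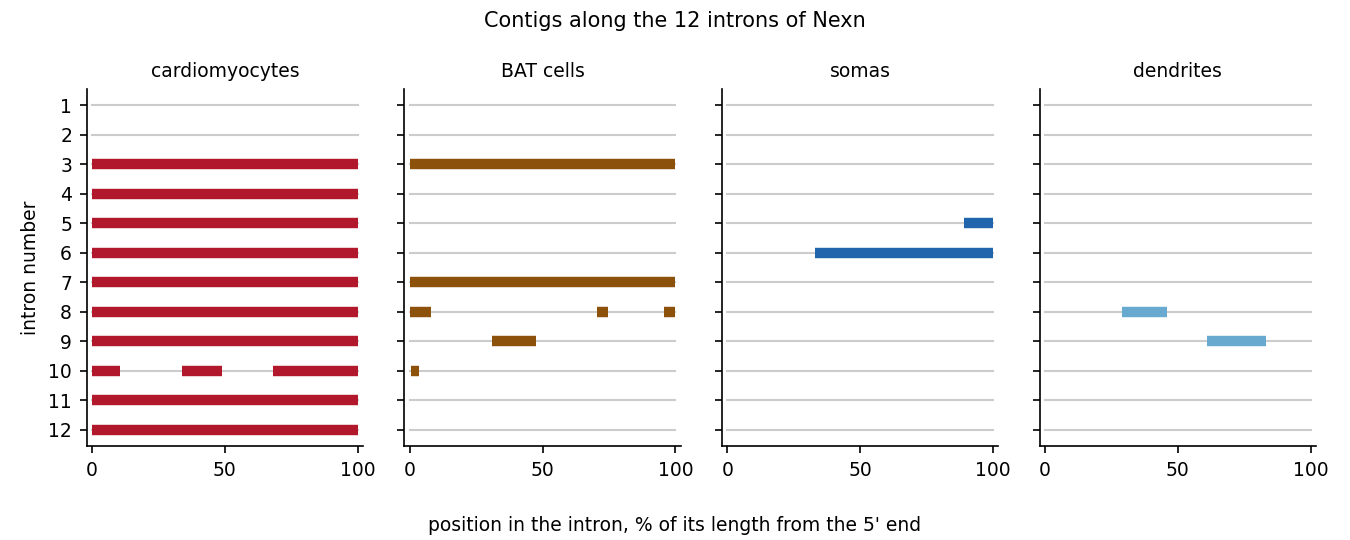
Position of contigs (coloured bars) along each of the 12 introns of Nexn (y axis, numbered from the 5' end), as percent of the intron's length, in the 4 mouse lists. In cardiomyocytes 9 introns hold a contig from end to end, in BAT cells 2, and in somas and dendrites none.

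The most read intron of Actn2 differed between the lists that held the gene, although all 6 of its introns in BAT cells and 6 of 7 in dendrites were also listed in cardiomyocytes. In cardiomyocytes its most read intron was number 8 with 15872 reads (1301 RPM) in a contig over all 2072 nt, followed by intron 12 with 10446. In BAT cells intron 20, the last intron, held 11693 of 12481 reads (655 RPM) in a contig of 789 nt, where cardiomyocytes had 125 reads (10.2 RPM) in a contig over the whole 1125 nt. In dendrites intron 5 led with 266 reads, against 12 in cardiomyocytes. The 4.31-fold excess of cardiomyocytes over BAT cells thus joins introns that moved in opposite directions. When the most read intron of each gene was left out of each list, an alternative chosen after seeing the data, the excess of Actn2 over the highest other list was 27.1-fold.

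Myom1 drew 25157 of its 48832 reads in cardiomyocytes from intron 18, 8574 from intron 22 and 7508 from intron 19. BAT cells listed these introns too, with 1136, 225 and 1909 reads. Intron 13 was the one Myom1 intron in all 4 mouse lists, at 129 RPM in cardiomyocytes, 0.448 in BAT cells, 56.1 in somas and 22.4 in dendrites. Introns 2 and 33 were higher in BAT cells than in cardiomyocytes, at 7.28 against 3.61 RPM and 23.5 against 16.3 RPM. For Ldb3, intron 12 held 8443 reads in cardiomyocytes and 535 in BAT cells, where intron 6 led with 891.

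Ttn had the most listed introns, 46 in cardiomyocytes, 23 each in the numbering of NM_028004 (191 introns) and of NM_011652 (312 introns). Of the introns numbered by NM_011652, 22 lie inside a single intron of 87437 nt of NM_028004. Counts of all 46 listed introns ran from 2 to 19856 reads with a median of 526.5. Introns 85 (19856 reads) and 126 (10974) of NM_011652 and intron 68 (11019) of NM_028004 led. Intron 126 is short (221 nt) and its contig of 198 nt ended 7 bases past the run of A shown above. BAT cells listed 25 Ttn introns, 15 of them shared with cardiomyocytes, and every shared intron was higher in cardiomyocytes, the closest being intron 9 (79.5 against 74.1 RPM). In dendrites 220 of 239 Ttn reads lay in intron 75, which had 13 reads in cardiomyocytes, and somas held 11 Ttn reads in all.

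**Figure D3:**
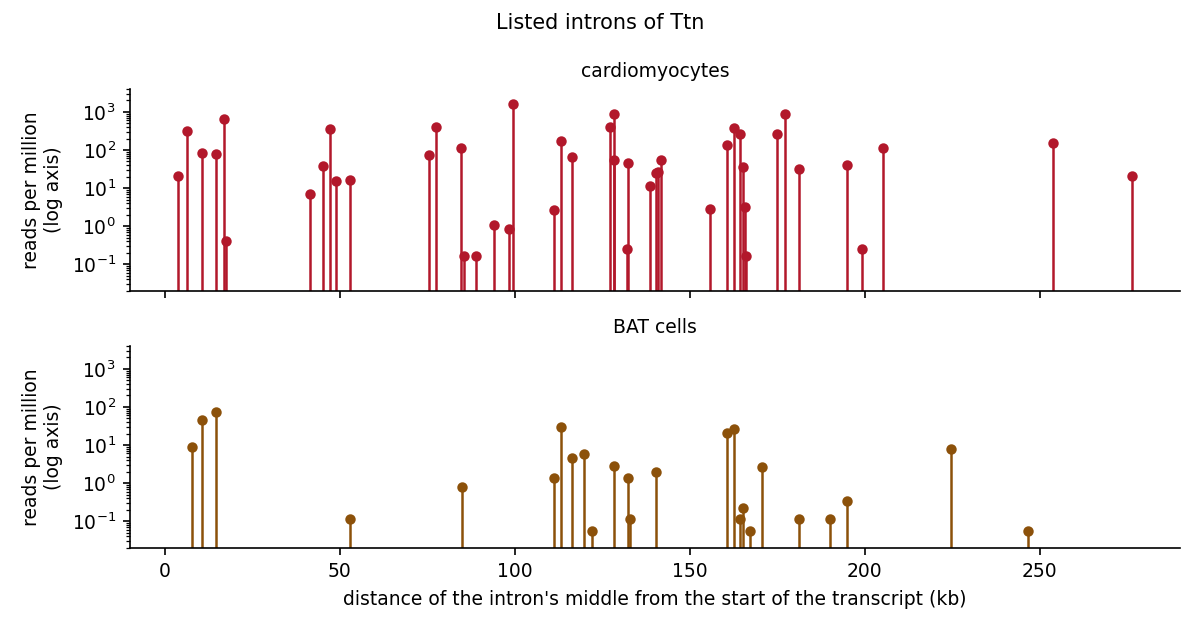
RPM of each listed Ttn intron (log axis) against the distance of its middle from the start of the annotated transcript in kb, for cardiomyocytes (top, 46 introns) and BAT cells (bottom, 25 introns). Listed introns lie along the whole gene in both, with higher values in cardiomyocytes.

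The Nebl reads came with a limit set by the annotation. The lists use a short transcript, whose intron 4 spans 155553 nt and contains 23 exons of the longer annotated transcript Nebl-003. In cardiomyocytes 18 of the 23 contigs of this intron touched exons of Nebl-003, and 21 of the 23 exons had a contig. Exon bases made up 19.2% of the contig bases, and the 80964 reads are given for the intron as a whole, so reads of exons and of introns cannot be told apart there. One contig was an exon and nothing else (chr2:17310319-17310411), 93 nt long with all its bases in capitals.
Nebl intron 4: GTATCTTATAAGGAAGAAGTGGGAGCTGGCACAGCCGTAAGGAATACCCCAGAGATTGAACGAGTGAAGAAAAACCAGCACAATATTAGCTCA

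Outside cardiomyocytes the pattern changed. In BAT cells 13232 of 13572 Nebl reads lay in intron 2, which was not listed in cardiomyocytes, and none of its 12 contigs touched an annotated exon. Intron 4 held 315 reads in BAT cells, with a contig on 1 of the 23 exons. In somas intron 4 held 1534 of 1839 reads and in dendrites 829 of 1529, each also with a contig on 1 of the 23 exons. Nebl alone supplied 88.0% of the members' reads in somas and 56.2% in dendrites.

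Intron 5 of Nebl was listed at the same place in 3 lists, and no contig there touched an annotated exon. It had 19271 reads in cardiomyocytes, 284 in somas and 499 in dendrites. The soma contig and the dendrite contig ended within 2 bases of each other in a run of A, while the cardiomyocyte contig of 1119 nt extended beyond it. The end of the dendrite contig (chr2:17286010-17286059) is shown to mark this shared stop, with the run in capitals.
Nebl intron 5: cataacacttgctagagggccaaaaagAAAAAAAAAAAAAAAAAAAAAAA
The 12 reads of BAT cells in this intron lay elsewhere.

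Myh7 had 18 listed introns in cardiomyocytes, but 23204 of its 24603 reads fell in intron 26 (1754 nt), where the contig spanned 1586 nt (chr14:55599417-55601002). Of these bases, 992 are also an exon of the annotated retained-intron transcript Myh7-002. Intron 16 added 1160 reads, and the other 16 introns had between 2 and 64 each. In 7 of the 18 a contig spanned the intron from end to end, some from very few reads, such as the 2 reads of intron 32 (156 nt) and the 3 of intron 9 (110 nt), so reads need not fill them. Intron 31 is the home of Mir208b, a microRNA of the heart encoded within its myosin gene. Its contig spanned the 461 nt of the intron with 24 reads, and its span held the whole 77 nt hairpin, found there letter by letter. The mature strand of RefSeq is printed with its seed, bases 2 to 8, in capitals, beside miR-208a, which is encoded in Myh6 and has the same seed.
miR-208b-3p: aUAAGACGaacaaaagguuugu
miR-208a-3p: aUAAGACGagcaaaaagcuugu
The Myh6 intron with Mir208a was not listed, and the Myh7 reads do not measure the mature microRNA. Per the paper, introns overlapping annotated noncoding RNAs were filtered out, although the one with Mir208b is listed. Whether that filter took out the Mir208a intron was not tested.

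The 4 listed Myh6 introns in cardiomyocytes were more even, with 2728 reads in intron 20, 1729 in intron 36, 1558 in intron 3 and 425 in intron 25. Intron 3 was also the only Myh6 intron of BAT cells and dendrites, and the 643 nt dendrite contig shared 602 bases with that of cardiomyocytes. Tnnt2 had 10038 reads in intron 10, where the contig spanned 1236 of 1250 nt with 9 bases on an exon of other Tnnt2 transcripts, and 517 in intron 3. Of the 5 listed Mybpc3 introns, 3 were spanned from end to end, among them the intron printed above.

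Of 57 member introns in BAT cells, 40 (70.2%) were also listed in cardiomyocytes, against 38.0% of all BAT introns of genes that both lists hold. The values were 10 of 13 (76.9%) against 46.1% in somas and 21 of 29 (72.4%) against 36.7% in dendrites. Seen from cardiomyocytes the order was the reverse. The 40 introns were 33.6% of the members' 119 distinct introns there, against 60.1% of all cardiomyocyte introns, and the shares were 8.40% against 26.7% for somas and 17.6% against 36.0% for dendrites. In 36 of the 40 the level was higher in cardiomyocytes, where 52.6% of all introns shared by both lists were. The exceptions were introns 6 and 20 of Actn2 and introns 2 and 33 of Myom1.

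**Figure D4:**
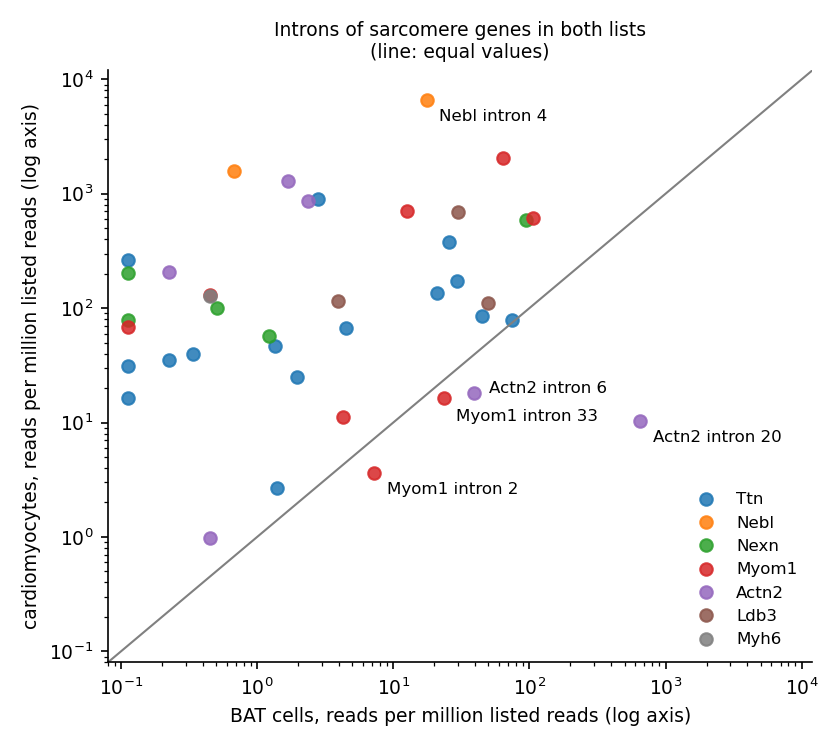
RPM in cardiomyocytes (y axis) and BAT cells (x axis), both on log axes, for the 40 introns of these genes in both lists, coloured by gene. The grey line marks equal values, and the 4 introns below it are labelled, with Actn2 intron 20 the farthest.

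Contigs of the members were longer and deeper in cardiomyocytes than those of the list as a whole. The median contig was 381.5 nt for members and 283 nt over all genes, 17.3% against 7.27% reached 1000 nt, and the median intron had 427 against 53 reads. Contigs spanned a median of 52.2% of the intron, against 12.5%, in introns whose median length was 1135 against 2772 nt. In the other lists the median contig was shorter than that of all genes, at 228.5 against 274 nt in BAT cells, 235 against 278 in somas and 241 against 257 in dendrites. The median reads per intron were 35 against 29 in BAT cells, 10 against 22 in somas and 38 against 24 in dendrites, and the median share of the intron spanned was 16.6% against 13.2%, 8.26% against 9.19% and 10.5% against 8.44%. Without Nebl, 8.89% of the members' contigs in cardiomyocytes touched an annotated exon, against 11.4% over all genes and 18.5% with Nebl.

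A run of at least 10 A lay somewhere in 30 of 162 member contigs of cardiomyocytes. Within 10 nt of the 3' end a run of at least 10 A was found in 11 of 162 member contigs in cardiomyocytes (6.79%), 5 of 90 in BAT cells (5.56%), 2 of 15 in somas (13.3%) and 5 of 44 in dendrites (11.4%). Over all contigs the shares were 8.44%, 4.44%, 9.47% and 6.68%. At the 5' end no member contig had one, and over all contigs the shares were 0.143%, 0.147%, 0.116% and 0.0984%. Of the 11 cardiomyocyte contigs, 9 were in Ttn. Runs of T at the 5' end, which are runs of A on the other strand, were found in 4 member contigs of cardiomyocytes (2.47%, against 2.95% of all contigs), 2 of BAT cells (2.22% against 3.97%), 1 of somas (6.67% against 4.09%) and 8 of 44 in dendrites (18.2% against 9.51%). A run is a description of these letters and was not tested as a start of amplification.

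**Figure D5:**
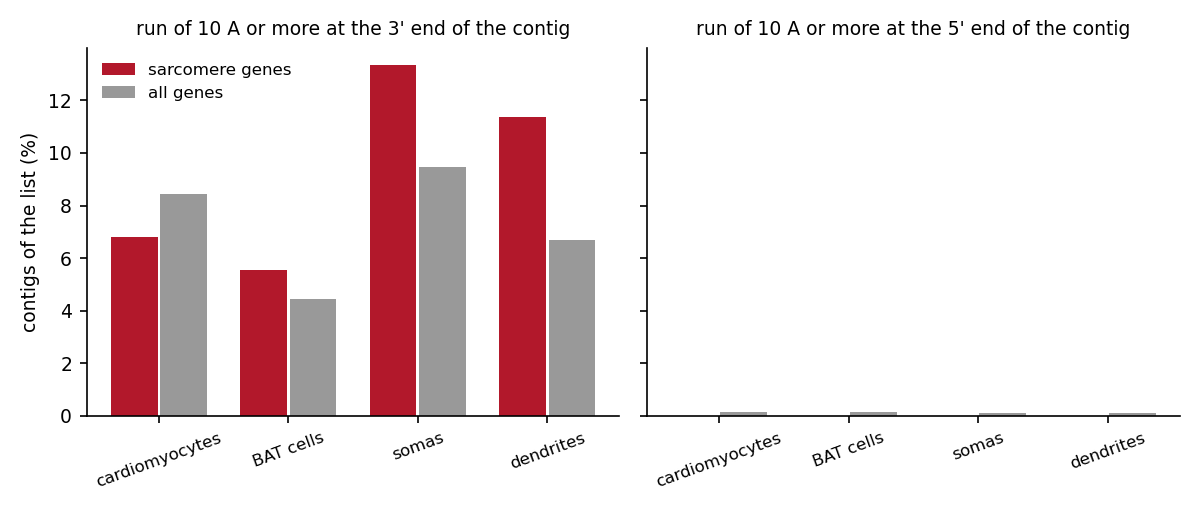
Percent of contigs with a run of at least 10 A within 10 nt of the 3' end (left) or the 5' end (right), on the gene's strand, for the 10 sarcomere genes (red) and all genes (grey) of each mouse list. The left bars lie between 4.44% and 13.3% and the right bars between 0% and 0.147%.

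Of 54 other sarcomere genes, 7 were in no mouse list and 37 were listed in cardiomyocytes. Of the 54, 24 were at least 4-fold higher there than in each other mouse list. Among the genes of any mouse list these shares were 49.8% and 7.17%. BAT cells listed 33 of the 54 (82.0% of the genes of any mouse list), dendrites 30 (69.0%) and somas 14 (47.3%). The 6 with the most reads were Trim55, a ubiquitin ligase of the sarcomere (45337 reads), Nrap (18422), Pdlim3 (18245), Myh7b (17739), Ankrd1 (15596) and Palld (15000). Trim55 was 37.7-fold and Ankrd1 658-fold above the highest other list, while Palld was 2.34-fold and did not reach the limit. Myl2, the ventricular regulatory light chain, had 13060 reads in cardiomyocytes and 4 in BAT cells. Neb, a member of the same list and the giant nebulin of skeletal thin filaments, had 12 reads in cardiomyocytes, 5807 in BAT cells, 300 in somas and 3961 in dendrites.

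The 16 skeletal muscle markers summed to 12.2 RPM in cardiomyocytes (4 listed), 819 in BAT cells (8), 175 in somas (5) and 1773 in dendrites (9). Neb is also one of these markers and alone made up 1283 RPM of the sum in dendrites, 325 in BAT cells, 162 in somas and 0.984 in cardiomyocytes. Their part in the member reads of BAT cells and dendrites was not tested. Among the others, in BAT cells Myh8 had 3161 reads, Mybpc1 2454, Myh3 1197 and Ryr1 1058, while Myod1 and Myog had none.

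The profiles of 5 other genes were nearest to the mean of the members, by the distance of log2(RPM + 1) over the 4 mouse lists. They were Syncrip at a distance of 1.18, Svil at 1.82, Uty at 1.87, Dsg2 at 2.16 and Spna1 at 2.25. Syncrip had 1340 RPM in cardiomyocytes, 38.6 in BAT cells, 4.31 in somas and 13.9 in dendrites. The members themselves were between 2.33 (Ldb3) and 9.67 (Nebl) from their own mean, so the mean stood for no single one of them.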

How the data were processed

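The data were 6 lists of intronic contigs made from 26 libraries. Per the paper's methods aRNA-amplified RNA was sequenced, RUM was the aligner, and unique reads in introns were joined into contigs when within 500 bp. Introns that hold a predicted gene or a known poly(A) site had been taken out by the authors. Per the paper, so had introns that overlap annotated noncoding RNAs or have reads only at exon-intron junctions. In somas, BAT cells and cardiomyocytes the paper kept only contigs of 400 nt or less, to limit nuclear RNA. Here contigs of all lengths were used, and 48.8% of the member contigs of cardiomyocytes were longer than that limit. The libraries do not keep the strand. The deposited counts are raw reads per intron, pooled over libraries of a condition by the authors, without normalization. Builds were mm9 and rn4 per the labels. For BAT cells and for cardiomyocytes the labels name more libraries than the paper, and the pooled files do not say which were used.

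Tables were handled in pandas 2.3.3 under Python 3.11.15, intervals came from scipy 1.17.1, sequences from pysam 0.24.0 and figures from matplotlib 3.10.9. Counts were taken once per transcript and intron, summed per gene symbol and divided by the list's total, times 1000000. Stops were read as the last base of a contig counted from 0, since 12092 contigs then ended at the last base of their intron and 4 otherwise. RefSeq transcripts were matched to GENCODE introns on mm9 within 5 bases (12940 of 13156), and where the listed number fitted no intron, as in Mybpc3 and part of Tnnt2, the shortest annotated intron holding the contig was used. For folds, a gene with fewer than 3 reads in another list, or not listed there, was set to 3 reads. Where introns were counted, this floor was 3 introns. Rat sequences were not analysed here. No test between conditions was run. All 10 genes are named, with the 6 other sarcomere genes of most reads, the 5 nearest profiles, and for each member the top intron and introns in several lists. Genes chosen after their values were seen are Myl2, Neb, Trdn, Cox6c and the markers named. The members, lists and rules were chosen with earlier results of these data known. Alternatives were limits on contig length and reads, exon overlap, top introns and other scalings.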

Additional observations from a re-analysis of the deposited data

How the results depend on the processing

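Because libraries are pooled in the lists, leaving out a library or pairing libraries could not be run. Of 33 recomputed shares 11 stayed within the counting interval of the share reported, which is narrow at this depth, and 22 did not. Of 38 recomputed counts 27 stayed within 1.5 times of the count reported and 11 did not. Taking each position once per gene could not change a share, since no position was listed again. This alternative was run in each of the 6 lists, and its shares are among the 11. The share of member reads is given in the order cardiomyocytes, BAT cells, mouse somas, mouse dendrites. It was 3.28%, 0.247%, 0.19% and 0.098% with contigs of 400 nt or less, 3.45%, 0.234%, 0.0352% and 0.0649% without introns that touch an annotated exon, and 2.49%, 0.22%, 0.124% and 0.0927% without the 10 introns of most reads. With at least 32 reads the cardiomyocyte share was 3.86%. In rat somas the share was 0.0236% with contigs of 400 nt or less and 0.0181% without the 10 top introns. In rat dendrites it was 0.00205% with the shorter contigs and 0 with at least 32 reads. Alternatives chosen after seeing the data were leaving out Nebl, which gave 3.05%, 0.134%, 0.0135% and 0.0387%, leaving out Nexn intron 4, which gave 2.99% in cardiomyocytes, and leaving out each gene's top intron in each list, which was run for the 4-fold count alone. The share of cardiomyocytes was above that of BAT cells under each alternative for which shares are given here, while somas fell below dendrites without Nebl and without introns on exons.

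With contigs of 400 nt or less 66 member introns remained in cardiomyocytes and 1 intron of 1 member in rat somas. With at least 32 reads 29 introns remained in BAT cells, 15 in dendrites, 4 introns of 3 members in mouse somas, 1 member in rat somas and 0 members and 0 introns in rat dendrites. The number of members at least 4-fold higher in cardiomyocytes was 10 with at least 32 reads (23.7% of the genes then listed in cardiomyocytes) and without each gene's top intron (12.6%), 9 when scaled by median reads per gene (16.7%, Actn2 at 3.15-fold) and without introns on exons (15.2%, Nebl at 2.34-fold, chosen after seeing the data), 8 with contigs of 400 nt or less (13.7%, Actn2 at 0.138-fold, Myh6 not listed) and 2 when introns were counted in place of reads, which 0.0483% of listed genes reached. The count of 2 was limited by a floor of 3 introns in each other list, with which genes of few listed introns could not reach 4-fold. The cause of the other moves was not tested.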
